A study of Homo sapiens with 23 samples.

Results

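The genes described here are 52 genes of the G2 phase and of mitosis: mitotic cyclins and their kinase, other mitotic kinases, and genes of the spindle checkpoint, the kinetochore, the spindle, chromosome condensation and cytokinesis. They were taken by name from the authors' deposited table of 21463 gene rows, and all 52 have a row and a test in each of its 4 comparisons. The cells were PC-3, an established line from a prostate cancer metastasis to bone, transduced with a lentivirus that carries PARG cDNA with a cleavable mClover3 behind the doxycycline-inducible TetOne promoter. PARG is the enzyme that takes poly(ADP-ribose) chains off proteins. The single clones I4 and H6 spent 72 h in medium with doxycycline at 500 ng/ml or with none, in experiments N and B. Experiment N was at passage 5, with libraries that do not record the strand. Experiment B was at passage 7, with strand-specific libraries and another sequencing provider. The untreated groups carry the same construct, and cells without it were not analysed here, so an effect of doxycycline cannot be told apart from one of PARG. Each of the 8 groups had 3 wells, except the untreated H6 group of experiment B with 2, which gave 23 libraries of poly(A)-selected RNA. Each clone is 1 line, so a difference between I4 and H6 is a difference between 2 clones.

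Cells enter mitosis when the kinase CDK1, bound to cyclin B, is switched on by CDC25 phosphatases, and they leave it when the anaphase-promoting complex, with its activator CDC20, has securin and the cyclins destroyed. In between, kinetochores attach chromosomes to the spindle, the checkpoint kinases hold anaphase back until every chromosome is attached, and kinesins and the central spindle proteins divide the cell. Most of these genes are transcribed from late S phase into mitosis, driven by the MuvB complex with B-MYB and FOXM1, and their mRNAs are low in resting and G1 cells. In bulk RNA, fewer cells in G2 and mitosis and less of an mRNA per such cell cannot be told apart.

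The table holds no value per library. Its columns give, per comparison, a level (the larger group mean, on the scale of RPKM, reads scaled to exon length and library depth), a signed fold change between doxycycline and none, and a q-value, which is the authors' p adjusted over genes. No SD can be given, and a gene is called changed here where the q-value is under 0.05. The direction of the folds was set by PARG itself, with rises per the authors' deposited table of 1.35-fold (experiment N) and 1.40-fold (experiment B) for I4 and of 2.15-fold and 1.99-fold for H6. The value of a single read, seen as steps in barely detected genes, put the typical library at about 36100000 to 38500000 reads for experiment N and 22700000 to 23200000 for experiment B. At that depth the 52 genes rested on at least about 690 reads per library in experiment N and 420 in experiment B, with medians of 5000 to 5200 and 3900. Of the epithelial markers, the keratins KRT18 and KRT8 were at 101 to 127 and 25.1 to 55.9 RPKM per the authors' deposited table, EPCAM was at 4.77 to 5.66 and CDH1 at 0.332 to 0.394, while the mesenchymal VIM was at 287 to 416. Of the prostate luminal markers, HOXB13 was at 63 to 83.4 RPKM and KLK3 at or under 0.00695 RPKM. KRT8, KRT18 and HOXB13 were themselves called higher in all 4 comparisons, with folds of 1.28 to 1.33, 1.20 to 1.31 and 1.40 to 1.84 per the authors' deposited table. Of 6 fibroblast and 5 blood cell markers, only COL1A1 and CD68 reached 1 RPKM in that table. The 13 mitochondrially encoded mRNAs set the experiments apart, with a median log2 fold of -0.65 in I4 and -0.55 in H6 in experiment N against 0.07 and 0.17 in experiment B. The part of these genes in the results below was not tested.

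Cell cycle promoters of this class are known for 2 short elements, the cell cycle genes homology region, TTTGAA, and the NF-Y box, CCAAT. In RefSeq promoters (GRCh38.p14, 250 bases before to 50 after a start) 44 of the 52 genes matched by symbol, with 56 promoters. TTTGAA, searched on both strands, was in 36 of the 56 (64.3%) and in 15.2% of all 35116 promoters of this length. CCAAT was in 69.6% against 34.6%, both together were in 50% against 5.9%, and the rarer variant TTCGAA was in 7.14% against 1.45%. These are matches of letters and not measured sites. The promoters below belong to 3 genes that rose in both clones in experiment N (CCNB2, KIF20A, NUSAP1), to DLGAP5, which rose in both clones in experiment B, to KIF11, which rose there in I4, and to AURKB, the gene with a called fall. Each is written 5′ to 3′ on the strand of its gene, and capitals mark TTTGAA and CCAAT on either strand (as TTCAAA and ATTGG on the other one).
CCNB2: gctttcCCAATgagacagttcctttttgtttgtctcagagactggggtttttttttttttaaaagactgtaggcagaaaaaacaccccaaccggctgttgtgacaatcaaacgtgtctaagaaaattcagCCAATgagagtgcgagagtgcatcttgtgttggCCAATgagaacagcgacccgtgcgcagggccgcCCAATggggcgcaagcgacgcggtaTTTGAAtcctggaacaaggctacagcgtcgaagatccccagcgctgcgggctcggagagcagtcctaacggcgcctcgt
KIF20A: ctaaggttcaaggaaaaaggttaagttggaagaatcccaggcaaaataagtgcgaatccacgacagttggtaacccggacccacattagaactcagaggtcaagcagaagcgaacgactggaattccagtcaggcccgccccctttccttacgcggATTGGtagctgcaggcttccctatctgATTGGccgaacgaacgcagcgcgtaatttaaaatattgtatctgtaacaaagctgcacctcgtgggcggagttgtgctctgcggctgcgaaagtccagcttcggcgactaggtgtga
NUSAP1: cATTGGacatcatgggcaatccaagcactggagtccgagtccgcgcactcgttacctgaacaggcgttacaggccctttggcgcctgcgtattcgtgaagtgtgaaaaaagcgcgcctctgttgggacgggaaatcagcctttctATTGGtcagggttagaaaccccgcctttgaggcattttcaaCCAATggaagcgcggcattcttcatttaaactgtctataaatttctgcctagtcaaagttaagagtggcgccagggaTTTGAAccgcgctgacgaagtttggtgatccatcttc
DLGAP5: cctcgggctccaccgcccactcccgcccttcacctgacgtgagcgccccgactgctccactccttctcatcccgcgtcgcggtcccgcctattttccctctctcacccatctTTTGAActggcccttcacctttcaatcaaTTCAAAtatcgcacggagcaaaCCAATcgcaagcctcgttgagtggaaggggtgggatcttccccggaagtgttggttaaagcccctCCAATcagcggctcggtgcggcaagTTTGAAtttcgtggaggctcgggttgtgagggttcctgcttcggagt
KIF11: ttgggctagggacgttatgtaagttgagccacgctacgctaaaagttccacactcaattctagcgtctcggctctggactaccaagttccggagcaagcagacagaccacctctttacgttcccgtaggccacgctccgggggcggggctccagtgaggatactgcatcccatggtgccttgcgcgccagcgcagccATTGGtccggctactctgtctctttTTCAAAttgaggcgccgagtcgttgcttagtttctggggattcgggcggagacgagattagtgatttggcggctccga
AURKB: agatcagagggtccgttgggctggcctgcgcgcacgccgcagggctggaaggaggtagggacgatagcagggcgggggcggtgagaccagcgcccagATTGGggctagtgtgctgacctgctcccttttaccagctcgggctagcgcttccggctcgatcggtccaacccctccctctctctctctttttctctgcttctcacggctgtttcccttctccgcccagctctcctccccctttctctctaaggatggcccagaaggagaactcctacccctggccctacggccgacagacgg
The CCNB2 promoter (chr15:59104896-59105195 on the plus strand) holds 4 CCAAT matches and 1 TTTGAA. The KIF20A promoter (chr5:138178862-138179161 on the plus strand) holds 2 CCAAT matches and no TTTGAA, and the NUSAP1 promoter (chr15:41332631-41332930 on the plus strand) holds 3 and 1. The DLGAP5 promoter (chr14:55191536-55191835 on the minus strand) holds 2 CCAAT and 3 TTTGAA matches, and that of KIF11 (chr10:92592880-92593179 on the plus strand) 1 of each. For AURKB, with 2 starts listed, the one with the lower coordinate is shown (chr17:8210176-8210475 on the minus strand), and it holds 1 CCAAT match. On the minus strand this is the start further downstream, and the stretch lies inside the span of the gene (8204733 to 8210600). The sequence at the other AURKB start is not shown. Counted by gene, TTTGAA was found for 33 of all 44 genes, for 8 of the 11 called higher in either clone in experiment N and for 4 of the 5 called higher in either clone in experiment B, which are like shares.

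With doxycycline the 52 genes lay slightly above the other genes in every comparison. The median log2 fold was 0.073 in I4 and 0.033 in H6 in experiment N, and in experiment B it was 0.079 and 0.069. On the linear scale these are median folds of 1.02 to 1.06. The median of the 10752 genes that reached 1 RPKM and were tested throughout lay between -0.008 and 0.008. Above 0 were 38 and 31 members in experiment N and 43 and 42 in experiment B, for I4 and H6, which is 73.1%, 59.6%, 82.7% and 80.8% of the members against 48.3%, 48.5%, 50.5% and 51.7% of all genes of at least 1 RPKM. Of the 52, 22 (42.3%) were above 0 in all 4 comparisons and 2, AURKB and FOXM1, were below 0 in all 4. Among all genes tested in all 4, 21.6% were above 0 throughout and 20.8% below, and among those of at least 1 RPKM 24% and 24.6%. The list was described by these counts and was not put to a test of its own.

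**Figure D1:**
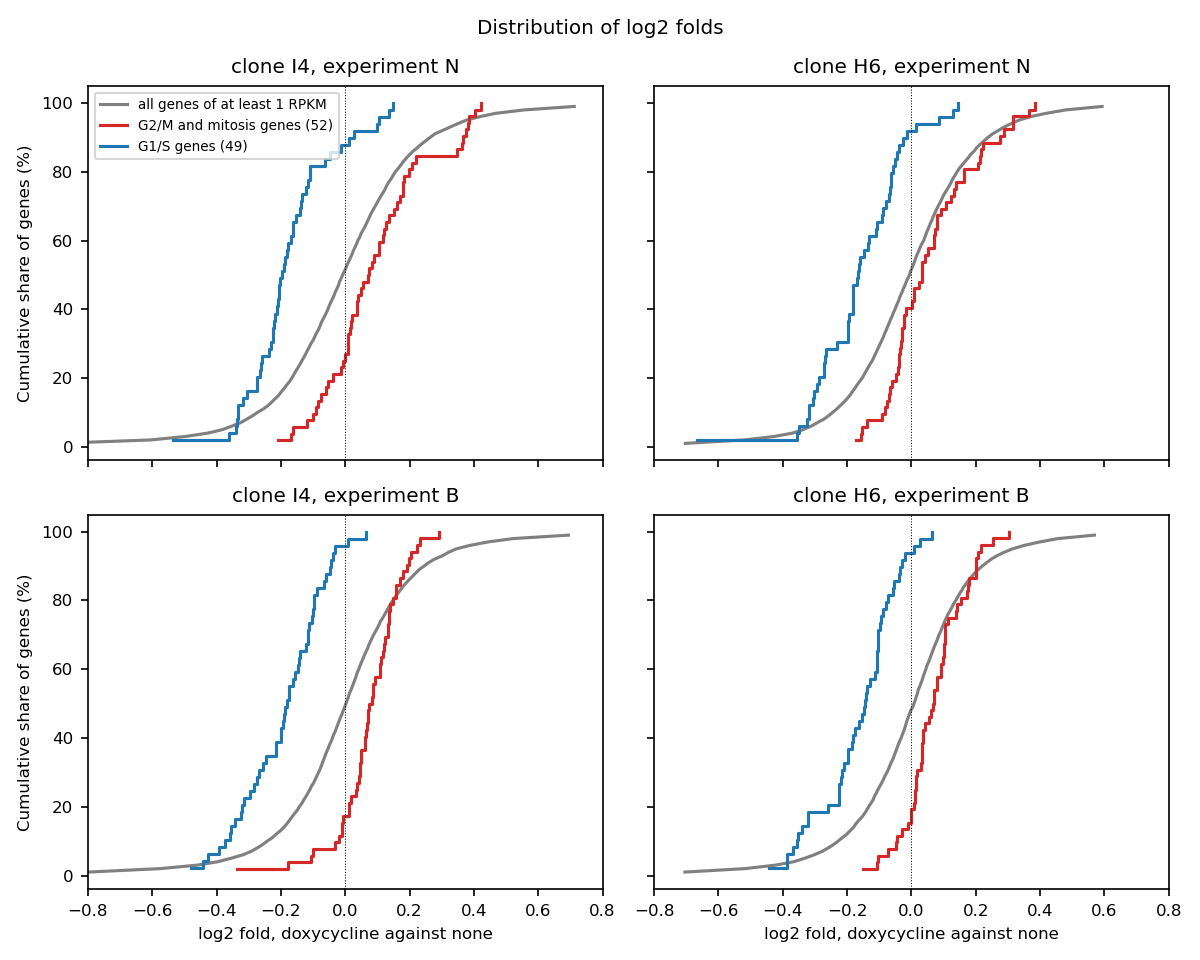
Cumulative share of genes (vertical axis, %) at or under a log2 fold of doxycycline against none (horizontal axis) in each comparison, for all genes of at least 1 RPKM (grey), the 52 G2/M and mitosis genes (red) and 49 G1/S genes (blue). The red curve runs to the right of the grey one around its middle in each panel, with medians of 0.033 to 0.079, and the blue curve runs to the left, with medians of -0.20 to -0.14.

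Few of the 52 genes passed the test one by one. By the q-values in the authors' deposited table, 11 members were called higher in I4 in experiment N (21.2% of 52, where 7.18% of all genes tested were called higher), and 9 were called higher in H6 in experiment N (17.3% against 6.57%). In experiment B, 5 were called higher in I4 (9.62% against 7.46%, and 1 of the 5 at a q-value under 0.01) and 1 in H6 (1.92% against 3.63%), which is near the background. Restricted to genes of at least 1 RPKM, the background for calls of a rise was 10.4% and 9.77% in experiment N and 10.1% and 4.93% in experiment B, for I4 and H6. Called lower was 1 member in I4 in experiment B, AURKB, and none in the others, where 8.53%, 7.07%, 6.59% and 3.93% of all genes tested were called lower in I4 and H6 of experiment N and I4 and H6 of experiment B. No member was called in all 4 comparisons, at a q-value under 0.05 or under 0.1, where 1.73% of all genes tested in all 4 were called higher throughout and 1.97% lower (2.27% and 2.65% of those of at least 1 RPKM). In both experiments of I4 the same 1 gene, NUSAP1, was called higher, where 4.13% of all genes tested were (5.55% from 1 RPKM), and in both experiments of H6 none was, where 2.71% were (3.6% from 1 RPKM). No member was called lower in both clones of an experiment, where 4.49% of all genes tested were in experiment N (6.55% from 1 RPKM) and 2.55% in experiment B (3.42%). None was called lower in both experiments of a clone either, where 4.58% of all genes were in I4 (6.29% from 1 RPKM) and 2.99% in H6 (4.13%). In all, 17 members were called in at least 1 comparison and 35 in none. The share of all genes called at least once was not counted, so these 2 counts have no background beside them.

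**Figure D2:**
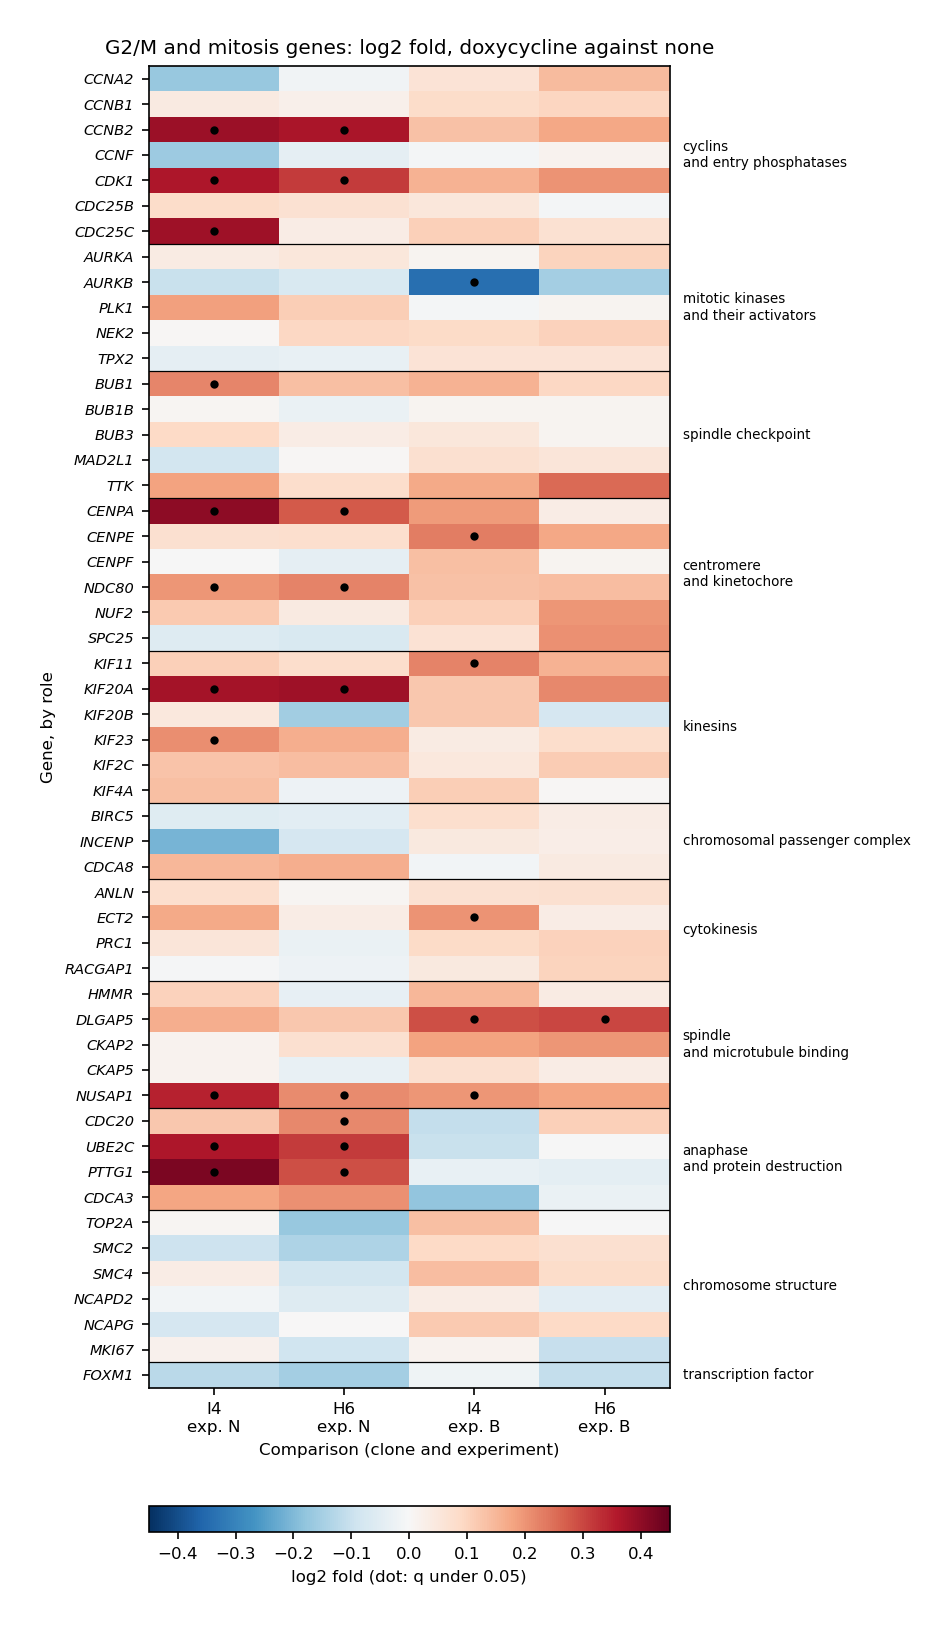
Log2 fold of doxycycline against none (colour, red higher, blue lower) for the 52 genes (rows, grouped by role) in the 4 comparisons (columns), from the authors' deposited table. Dots mark a q-value under 0.05, and 20 of the 27 dots are in the experiment N columns. The rows for chromosome structure, the chromosomal passenger complex and FOXM1 hold none, and 1 dot, AURKB, is on a fall.

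In experiment N the same 8 genes were called higher in both clones, 15.4% of the members against 3.67% of all genes tested in both and 5.34% of those of at least 1 RPKM. They were CCNB2, CDK1, CENPA, NDC80, KIF20A, NUSAP1, UBE2C and PTTG1. At a q-value under 0.01 the 8 became 3 (CCNB2, CENPA and KIF20A), and the 9 calls in H6 also became 3. CCNB2 (ENSG00000157456, chromosome 15, 59105078 to 59125045), a B-type cyclin, had levels of 19.5 RPKM in I4 and 22.4 in H6 in experiment N and of 22.4 and 25.5 in experiment B. It was 1.31-fold higher in I4 (q = 2.89e-06) and 1.29-fold higher in H6 (q = 1.01e-05) per the authors' deposited table. In experiment B the same table gives CCNB2 as 1.10-fold and 1.13-fold higher, with q-values of 0.348 and 0.268. KIF20A (ENSG00000112984, chromosome 5, 138178719 to 138187715), a kinesin of the central spindle needed for cytokinesis, had levels of 32.3 and 31.3 RPKM in experiment N and 40.8 and 42.6 in experiment B. It was 1.30-fold higher in each clone in experiment N per the authors' deposited table (q = 2.07e-06 and 1.44e-06). Its values in experiment B were 1.09-fold and 1.16-fold higher there (q = 0.363 and 0.081). CCNB2 and KIF20A thus had the smallest q-values of the list, and both clones gave nearly the same size.

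CDK1 (ENSG00000170312, chromosome 10, 60778331 to 60794852), the kinase that drives entry into mitosis, had levels of 103 to 109 RPKM in the 4 comparisons. It was 1.29-fold higher in I4 (q = 0.00431) and 1.24-fold higher in H6 (q = 0.02) in experiment N per the authors' deposited table. Its folds in experiment B were 1.11 and 1.15, both upward, with q-values of 0.147 and 0.111. The partner cyclin CCNB1 was not called anywhere: the authors' deposited table has it 1.03-fold, 1.02-fold, 1.06-fold and 1.07-fold higher in I4 N, H6 N, I4 B and H6 B, the order used from here on. CDC25C, a phosphatase that activates CDK1, was called in I4 of experiment N alone (1.30-fold higher, q = 0.00752), and the other folds per the authors' deposited table were 1.02, 1.08 and 1.05. A difference between the clones was not tested for it, since no library values were at hand. CCNA2, the cyclin of S phase and G2, was 1.12-fold and 1.01-fold lower and then 1.04-fold and 1.10-fold higher in that order, and CCNF lay between 1.12-fold lower and 1.01-fold higher, neither called. CDC25B, another CDC25 phosphatase, ran from 1.01-fold lower to 1.06-fold higher per the authors' deposited table.

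By the medians of the roles, the genes grouped as anaphase and protein destruction differed most between the experiments. UBE2C (ENSG00000175063, chromosome 20, 45812576 to 45816957), the ubiquitin-conjugating enzyme that works with the anaphase-promoting complex, had levels of 102 to 114 RPKM. It was 1.29-fold and 1.24-fold higher in experiment N per the authors' deposited table (q = 0.00437 in I4 and 0.021 in H6). The table's values for experiment B have UBE2C 1.07-fold and 1.00-fold lower, neither called. PTTG1 (ENSG00000164611, chromosome 5, 160421822 to 160428744) encodes securin, the inhibitor of separase, with levels of 62.6 and 54.4 RPKM in experiment N and 84.3 and 77.4 in experiment B. It was 1.34-fold and 1.22-fold higher in experiment N per the authors' deposited table (q = 0.00174 and 0.0448). Its folds in experiment B were 1.02 and 1.03, both downward and not called. CDC20, the activator of the complex, was called in H6 of experiment N alone (1.16-fold higher, q = 0.0167), beside 1.09-fold higher in I4 N, 1.08-fold lower in I4 B and 1.08-fold higher in H6 B per the authors' deposited table. CDCA3, which promotes the destruction of WEE1, was not called, at 1.13-fold and 1.15-fold higher in experiment N and 1.13-fold and 1.02-fold lower in experiment B. These 4 genes had a median log2 fold of 0.27 and 0.25 in experiment N and -0.10 and -0.02 in experiment B. In the former 2 and 3 of them were called higher (50% and 75%), against 10.4% and 9.77% of all genes of at least 1 RPKM. In the latter none was, against 10.1% and 4.93%. Whether these 4 genes differ from that background was not tested. Whether the experiments differ for single genes was not tested, and experiment stands for passage, library kit and sequencing provider together, which cannot be told apart.

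Among centromere and kinetochore genes, CENPA (ENSG00000115163, chromosome 2, 26764289 to 26801067), the histone H3 variant that marks centromeres, had levels of 13.3 to 21.2 RPKM. It was 1.32-fold higher in I4 and 1.21-fold higher in H6 in experiment N per the authors' deposited table (q = 0.00225 and 0.00457). It was 1.14-fold and 1.02-fold higher in experiment B, not called. NDC80 (ENSG00000080986, chromosome 18, 2571511 to 2616635), the microtubule-binding subunit of the kinetochore, had levels of 15.5 to 20.4 RPKM. It was 1.15-fold and 1.17-fold higher in experiment N (q = 0.0431 and 0.0204) and 1.10-fold higher in each clone in experiment B per the authors' deposited table. These NDC80 values were close together in all 4 comparisons, though only those of experiment N passed. NUF2 and SPC25, its partners in the same complex, were not called, and ran from 1.03-fold to 1.15-fold higher and from 1.05-fold lower to 1.15-fold higher per the authors' deposited table. NUF2 was above 0 throughout and SPC25 in experiment B. CENPE, a kinetochore motor, was called in I4 of experiment B (1.17-fold higher, q = 0.0108), against 1.05-fold in each clone in experiment N and 1.13-fold in H6 B (q = 0.61), all upward. CENPF, a large kinetochore protein of G2, was not called, with folds of 1.00 and 1.03 downward and 1.10 and 1.01 upward per the authors' deposited table.

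In experiment B the gene called in both clones was DLGAP5 (ENSG00000126787, chromosome 14, 55148112 to 55191678), a spindle protein that stabilises kinetochore microtubules, with levels of 72.8 and 76.9 RPKM in experiment N and 102 and 95.5 in experiment B. It was 1.22-fold higher in I4 (q = 0.000389) and 1.23-fold higher in H6 (q = 0.0024) in experiment B per the authors' deposited table, and 1.12-fold and 1.09-fold higher in experiment N, where it was not called. That 1 gene is 1.92% of the members, where 2.38% of all genes tested in both clones were called higher in both (3.15% from 1 RPKM). NUSAP1 (ENSG00000137804, chromosome 15, 41332694 to 41381050), a microtubule-bundling protein, was the member called most often, with rises of 1.27-fold, 1.16-fold and 1.15-fold in I4 N, H6 N and I4 B per the authors' deposited table (q = 1.03e-05, 0.0197 and 0.0376). In H6 B it was 1.13-fold higher with q = 0.204, so its 4 folds shared a direction and 3 passed. The rest of the spindle proteins, HMMR, CKAP2 and CKAP5, were not called. CKAP5, the microtubule polymerase, stayed between 1.02-fold lower and 1.05-fold higher per the authors' deposited table.

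KIF11, the kinesin that pushes spindle poles apart, was called in I4 of experiment B (1.17-fold higher, q = 0.0174), and was 1.08-fold, 1.06-fold and 1.11-fold higher in I4 N, H6 N and H6 B per the authors' deposited table. KIF23, a subunit of the central spindle complex centralspindlin, was called in I4 of experiment N (1.16-fold higher, q = 0.025) beside folds of 1.12, 1.03 and 1.06, all upward. KIF2C, a kinesin that depolymerises microtubules, had folds of 1.09, 1.10, 1.03 and 1.08 per the authors' deposited table, all upward and none called. The 6 kinesins together had median log2 folds of 0.13, 0.11, 0.12 and 0.10, and 2, 1, 1 and 0 of them were called higher. Those are shares of 33.3%, 16.7%, 16.7% and 0%, against 10.4%, 9.77%, 10.1% and 4.93% of all genes of at least 1 RPKM. Whether the 6 differ from that background was not tested. ECT2, the exchange factor that activates RhoA at the division plane, was called in I4 of experiment B (1.15-fold higher, q = 0.0319) and was 1.13-fold, 1.02-fold and 1.02-fold higher in I4 N, H6 N and H6 B per the authors' deposited table. The other cytokinesis genes ANLN, PRC1 and RACGAP1 were not called. ANLN, a scaffold of the contractile ring, was 1.05-fold, 1.01-fold, 1.05-fold and 1.05-fold higher, and PRC1, a crosslinker of the central spindle, 1.04-fold higher, 1.02-fold lower, 1.06-fold higher and 1.08-fold higher per the authors' deposited table.

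Of AURKA, AURKB, PLK1, NEK2 and TPX2, mitotic kinases and an activator, none was called higher. Of all genes of at least 1 RPKM, 10.4%, 9.77%, 10.1% and 4.93% were. Whether these 5 genes differ from that background was not tested. PLK1, which acts from entry into mitosis to cytokinesis, was 1.14-fold higher in I4 N (q = 0.0557), 1.08-fold higher in H6 N, and 1.01-fold lower and 1.01-fold higher in experiment B per the authors' deposited table. AURKA, the kinase of the spindle poles, was 1.03-fold, 1.04-fold, 1.01-fold and 1.07-fold higher, and its activator TPX2 ranged from 1.03-fold lower to 1.04-fold higher per the authors' deposited table. AURKB (ENSG00000178999, chromosome 17, 8204733 to 8210600), the kinase of the chromosomal passenger complex, went the other way. At levels of 23.4 to 27.4 RPKM it was 1.07-fold, 1.05-fold, 1.26-fold and 1.11-fold lower per the authors' deposited table, and the 1.26-fold fall in I4 B was called (q = 0.000522). Its partners in the complex gave no call. BIRC5 (survivin) was 1.04-fold and 1.03-fold lower in experiment N and 1.05-fold and 1.02-fold higher in experiment B per the authors' deposited table, and INCENP ran from 1.16-fold lower to 1.03-fold higher, neither called. CDCA8 (borealin) ran from 1.01-fold lower to 1.12-fold higher, also not called.

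Of the checkpoint genes, BUB1, a kinase of the unattached kinetochore, was called in I4 of experiment N (1.17-fold higher, q = 0.0137), and was 1.10-fold, 1.12-fold and 1.07-fold higher in H6 N, I4 B and H6 B per the authors' deposited table. TTK, the kinase that starts the checkpoint signal, was 1.13-fold, 1.06-fold, 1.13-fold and 1.19-fold higher with q-values of 0.0843 to 0.687 in the same table. MAD2L1, which holds CDC20 inactive, was 1.06-fold lower in I4 N and at most 1.05-fold higher elsewhere per the authors' deposited table, and BUB1B and BUB3 stayed within 1.06-fold. The 6 genes of chromosome structure had median log2 folds of 0.00, -0.09, 0.10 and 0.03 and no call. Among all genes of at least 1 RPKM, 10.4%, 9.77%, 10.1% and 4.93% were called higher and 12.6%, 10.5%, 9.02% and 5.35% lower. Whether these 6 genes differ from that background was not tested. TOP2A, the topoisomerase that untangles sister chromatids, was 1.01-fold higher, 1.13-fold lower (q = 0.0752), 1.10-fold higher and 1.00-fold lower per the authors' deposited table. The condensin ATPases SMC2 and SMC4 were 1.07-fold lower and 1.02-fold higher in I4 N, 1.10-fold and 1.06-fold lower in H6 N, and then 1.07-fold and 1.10-fold higher in I4 B and 1.05-fold and 1.06-fold higher in H6 B per the authors' deposited table. NCAPD2, a condensin subunit, stayed between 1.04-fold lower and 1.02-fold higher, and MKI67, the proliferation marker Ki-67, between 1.08-fold lower and 1.01-fold higher per the authors' deposited table. FOXM1, a transcription factor that drives many of the genes above, had levels of 47.5 to 54.1 RPKM and was 1.09-fold, 1.11-fold, 1.01-fold and 1.08-fold lower per the authors' deposited table, with the smallest q-value at 0.142.

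For these genes the folds of the 2 clones within an experiment lay closer together than those of the 2 experiments within a clone. For the log2 folds of the 52 genes, Pearson's r between I4 and H6 was 0.82 (Spearman's rho 0.81) with the libraries of experiment N, and 0.62 (rho 0.53) with those of experiment B. Set against its own other experiment, I4 gave an r of only 0.21 (rho 0.26) over these genes and H6 an r of 0.40 (rho 0.44). Across the 10752 genes of at least 1 RPKM, the r between clones was 0.71 in experiment N and 0.58 in experiment B, and that between experiments 0.72 in I4 and 0.56 in H6. The comparisons share no library. Both clones of an experiment share its passage, kit and provider, and genes are not independent replicates, so these values are a description. The sign was the same between clones for 41 of 52 genes in experiment N and 43 in experiment B, and between experiments for 35 in I4 and 33 in H6.

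**Figure D3:**
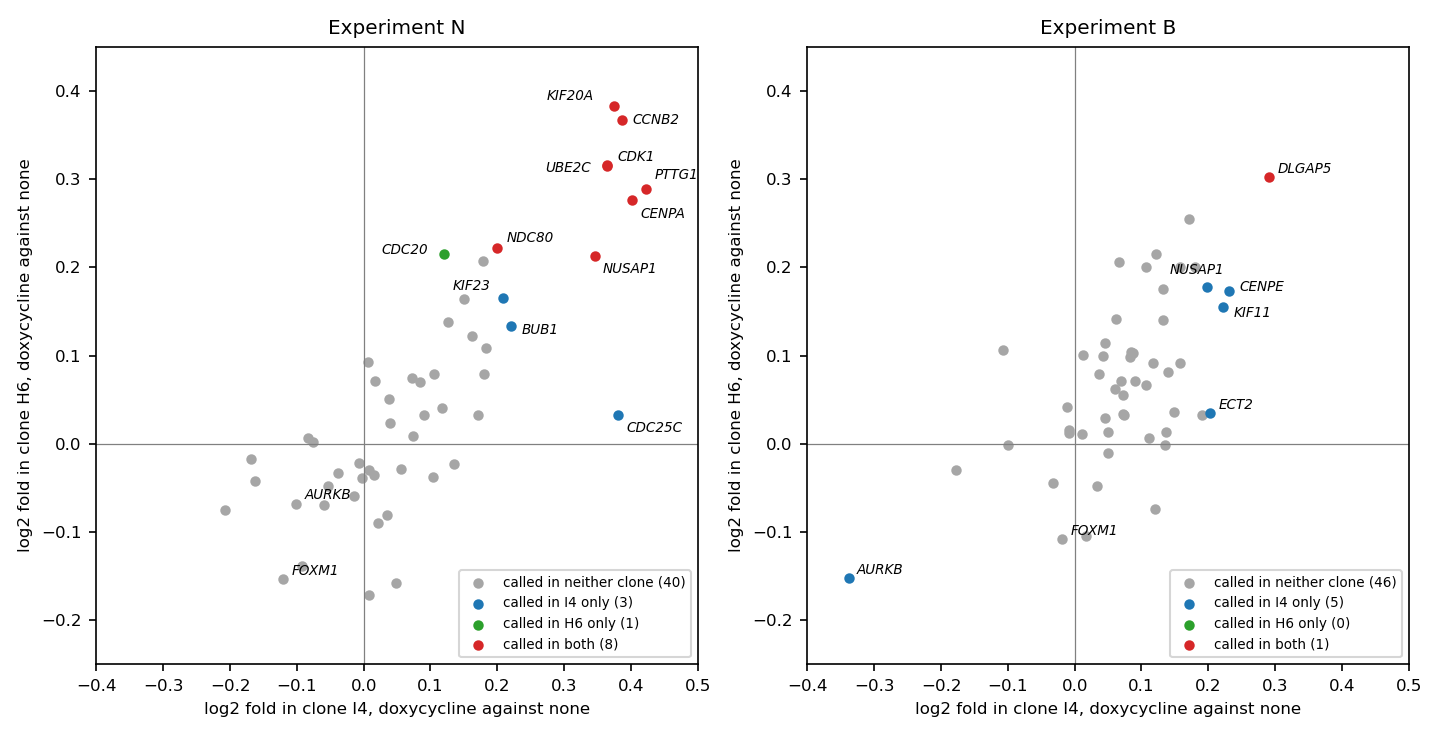
Log2 fold of doxycycline against none in clone I4 (horizontal axis) and clone H6 (vertical axis) for the 52 genes, in experiment N (left) and experiment B (right), coloured by the clones in which the q-value is under 0.05. Of the points, 8 are called in both clones in experiment N, where UBE2C and CDK1 coincide, and 1, DLGAP5, in experiment B. AURKB is the lowest in I4 in experiment B.

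Transcript length moved with these results. Over the 52 genes the log2 fold correlated with the length of the longest coding transcript at Spearman rho = -0.39 in I4 and -0.53 in H6 in experiment N, and at 0.24 and -0.22 in experiment B. Over 10667 genes of at least 1 RPKM rho was -0.10 and -0.20, and then 0.18 and -0.05. The 12 genes called higher in either clone in experiment N had transcripts of 914 to 3723 bases (median 2150), the 5 called higher in either clone in experiment B had 2409 to 8612 bases (median 4406), and all 52 had a median of 3532. In I4 and H6 of experiment N the median log2 fold of all genes in the shortest of 5 equal length groups (up to 1959 bases) was 0.032 and 0.058, and that of the 7 members in it 0.364 and 0.277. In the longest group (from 5769 bases) all genes had medians of -0.027 and -0.058 and the 7 members 0.021 and -0.039. In experiment B the 7 members of the shortest group had medians of -0.033 in I4 and 0.032 in H6. With each gene set against the median of its length group, a choice made after the data were seen, the median of the 52 genes was 0.093, 0.035, 0.076 and 0.059. The part of length in the differences between the experiments was not tested.

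**Figure D4:**
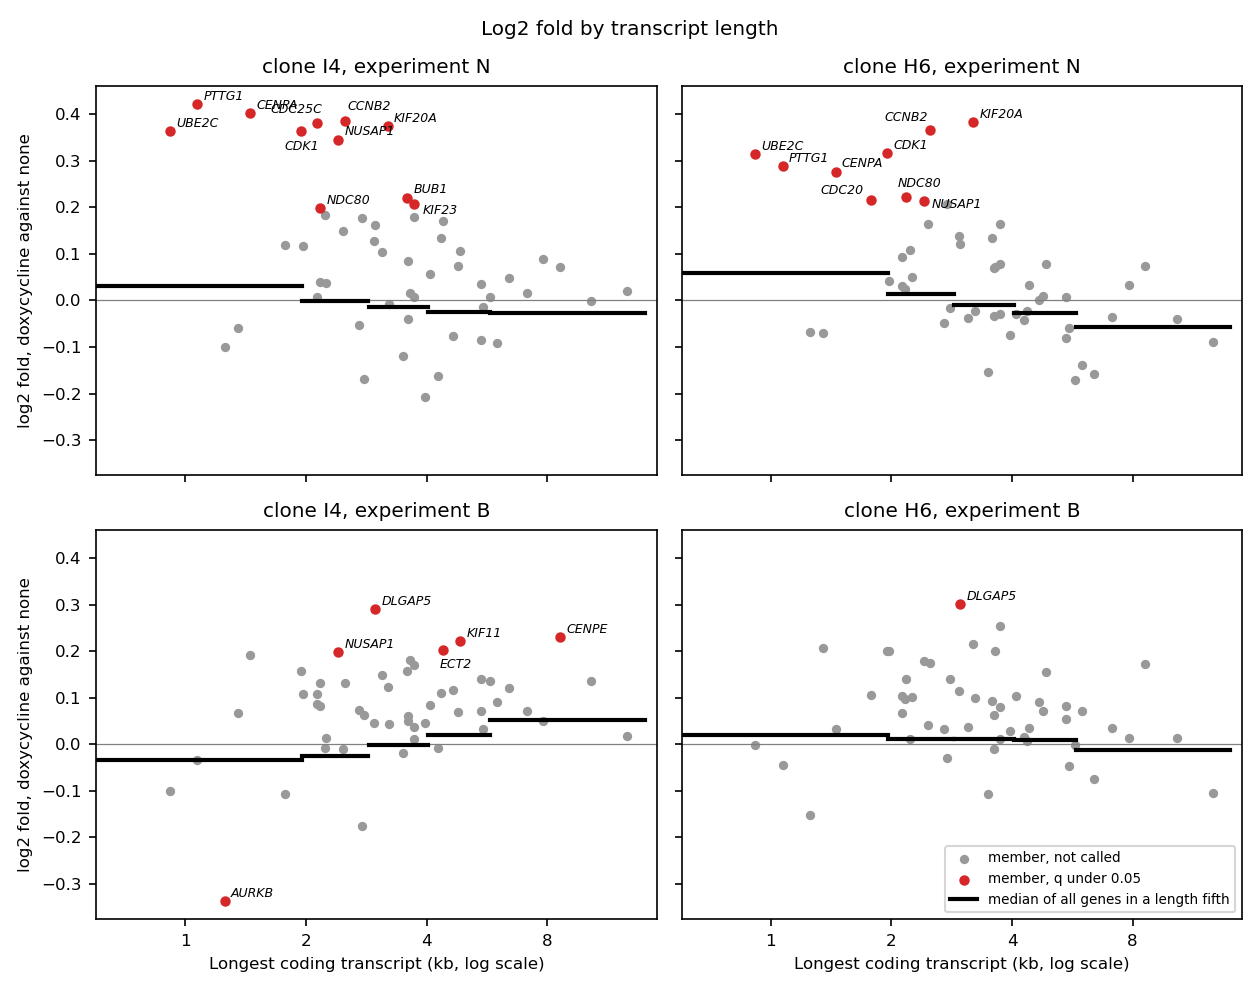
Log2 fold of doxycycline against none (vertical axis) by length of the longest coding transcript (horizontal axis, kb, log scale) for the 52 genes in each comparison, red where the q-value is under 0.05. Black bars give the median of all genes of at least 1 RPKM in each of 5 length groups, and lie between -0.058 and 0.058.

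The 52 genes are among the better expressed ones. Their levels, as the mean of the clones' values, ran from 6.04 RPKM (CDC25C) to 123 RPKM (CDC20) with a median of 27.7 in experiment N, and from 6.7 (CDCA3) to 147 (TPX2) with a median of 37.1 in experiment B. The median of all genes of at least 1 RPKM was 8.98 and 8.43. Over 100 RPKM in both experiments were CDC20, UBE2C and CDK1, joined by BIRC5 in experiment N and TPX2 in experiment B, and under 10 RPKM in both were CDC25C, CDCA3, CCNF and KIF20B. The long transcripts of MKI67 and CENPF stood at 26.7 and 28.3 RPKM in experiment N and at 55 and 55.3 in experiment B, ratios of 2.06 and 1.95. The median ratio of experiment B to N was 1.25 in I4 and 1.17 in H6 for the 52 genes and 1.02 and 1.00 for all genes of at least 1 RPKM, and over the 52 genes it correlated with length at rho = 0.53 and 0.38. The experiments used different kits and passages, so these ratios describe the libraries and were not tested.

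**Figure D5:**
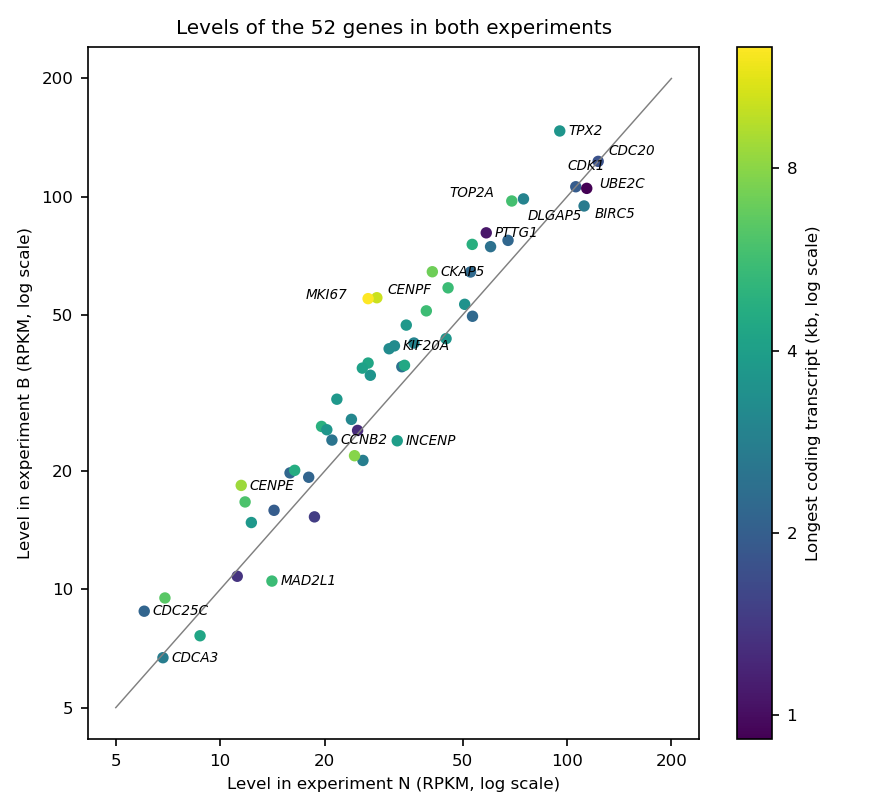
Level of the 52 genes in experiment N (horizontal axis) and experiment B (vertical axis), in RPKM on log scales, each the mean of the values of the 2 clones, coloured by length of the longest coding transcript. The line marks equal levels. MKI67 and CENPF, with the longest transcripts, lie farthest above it.

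Some of these values rest on shared sequence. The libraries of experiment N keep no strand, and 5 members share over 10% of their exon bases with genes of the opposite strand: NCAPG (33.1%, with LCORL), SMC4 (25.6%), FOXM1 (15.9%, with ITFG2), PLK1 (12.5%) and CCNF (11.8%), none of these 5 called. On their own strand, where stranded libraries do not help either, NUSAP1 shares 62.2% of its exon bases with AC087721.2, PRC1 57.6% with AC068831.7, BUB1B 10.2% with BUB1B-PAK6 and CENPA 7.0% with SLC35F6. NUSAP1 was called in 3 comparisons and CENPA in 2, so those calls rest on genes whose reads can be split or shared, and their values are uncertain to that extent. On the opposite strand, KIF20A shares 5.1% with BRD8 and CDC23, and CDC25C 8.8% with FAM53C. GENCODE lists pseudogenes named after 14 members, among them CCNB2, UBE2C, DLGAP5, CDC20 and BUB1, and how the authors' counting treated such reads was not stated in the labels.

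Further genes of the pathway lay closer to the median of all genes, a difference from the 52 that was not tested. Of 71 further G2/M and mitosis genes with a row, all of at least 1 RPKM, 5, 4, 8 and 5 were called higher and 5, 3, 2 and 0 lower in the 4 comparisons, with medians of 0.02, 0.01, 0.00 and 0.03. The shares called higher were 7.04%, 5.63%, 11.3% and 7.04%, where genes of that level gave 10.4%, 9.77%, 10.1% and 4.93%. Called higher in all 4 were SGO2, the shugoshin that protects centromeric cohesion (between 1.18-fold and 1.41-fold per the authors' deposited table), and CCNG2, a cyclin G gene linked to cell cycle arrest (1.34-fold to 1.48-fold). CDC25A, the phosphatase of the G1/S transition, was called lower in 3 of 4 and was 1.18-fold to 1.28-fold lower per the authors' deposited table. Among 14 genes of a list of MuvB and DREAM subunits, B-MYB and further E2F factors, none was called higher, beside the shares just given. Their medians were -0.05 to -0.08. In I4 B 2 were called lower (14.3%, against 9.02% of all genes of at least 1 RPKM). In the other comparisons none was called lower, against 12.6%, 10.5% and 5.35%. Whether these 14 genes differ from all genes was not tested. The genes of S phase entry lay on the other side: of 49 G1/S genes none was called higher in any comparison, and 22, 16, 18 and 8 were called lower (44.9%, 32.7%, 36.7% and 16.3%, against 12.6%, 10.5%, 9.02% and 5.35% of all genes of at least 1 RPKM). UHRF1, which brings DNA methylation to replicated DNA, was 1.27-fold to 1.36-fold lower, and the primase subunit PRIM1 1.20-fold to 1.27-fold lower per the authors' deposited table.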

How the data were processed

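The file is the authors' deposited table of 4 comparisons of doxycycline against none, 1 per clone and experiment. The submitters' processing notes name hg38. The aligner, counter, annotation and test are not given there or in the labels. The level is the higher group mean, made by the authors on the RPKM scale; that scale was read from the values, whose columns sum to 283580 to 301832. The fold is the authors' signed ratio, put here on the log2 scale, with its direction set by PARG. The q-value is the deposited adjusted p, of unstated method. Without values per library no model could be fitted, and calls are q-values under 0.05. The wells of a group come from 1 clone, so q-values reflect at most the spread between wells.

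The members and lists were chosen with earlier results of these data known. Named were members called in at least 2 comparisons, called against the median, among the 5 highest or lowest means, or representing a role (others complete a role). The rule for list genes was a call in at least 3 comparisons, at most 5 per list and direction. Genes that met it but are not described above were MCM10, CLSPN and UNG (lower) of the G1/S list. The same holds for CCNG1, PLK2 and TP53INP1 (higher) and CDKN1A (lower) of a list of 18 p53 response genes. Lengths and positions are from GENCODE v29 (GRCh38), which held 21376 of 21463 names. Depth was read as the commonest step of level times exon length, taken as 1 read in 1 of 3 libraries. Other settings were q-values under 0.01 and 0.1, a mean level of at least 10 RPKM, centred folds and the mean. Counting was tested on simulated data. Tools were Python 3.11.15, pandas 2.3.3 and matplotlib 3.10.9.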

Additional observations from a re-analysis of the deposited data

How the results depend on the processing

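The median log2 fold of the members stayed above 0 in all 4 comparisons under each alternative run. These runs were centring on all genes, the mean, a mean level of at least 10 RPKM (48 members), and centring within 5 length groups. The last was added after the data were seen. The number of genes above 0 in all 4 was 21 of the 48 at that level and 22 to 24 of the 52 otherwise. At a q-value under 0.01 the calls of a rise fell to 3 in H6 N, 1 in I4 B and 3 in both clones of experiment N, while 8 were left in I4 N and 14 of all 27 single calls were left. At a q-value under 0.1 KIF20A joined the calls in H6 B (2 in all) and 1, TOP2A, was called lower in H6 N. The shares of all genes called at q-values under 0.01 and 0.1 were not counted, so these counts have no background beside them. No count of members called in all 4 comparisons left 0. No paired analysis was possible because the table holds no values per library, and for the same reason leaving out each replicate in turn was not run. The spread between wells is unknown, so no error of a single fold can be given.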

Other observations

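Of 15 core subunits of the anaphase-promoting complex, 0, 1, 1 and 0 were called higher and 1, 2, 0 and 0 lower in I4 N, H6 N, I4 B and H6 B, with median log2 folds of 0.06, 0.04, -0.01 and 0.04. Of 10 cohesin genes with a row, 2 were called lower in each clone in experiment N and 2 were called higher in I4 of experiment B, with medians of -0.08, -0.07, 0.07 and 0.03. That is 20% of the list each time, where 12.6% (I4) and 10.5% (H6) of all genes of at least 1 RPKM were called lower in experiment N and 10.1% higher in I4 of experiment B. For the anaphase-promoting complex the largest share was 13.3% called lower in H6 of experiment N, beside the same 10.5%.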
